A study of Macaca radiata with 4 samples.

Results

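Genes of progesterone synthesis and of steroid handling in the corpus luteum were followed on 4 arrays, 2 per group. The genes were STAR, HSD3B2, FDX1, FDXR, CYP17A1 and HSD11B1, and every probe set was taken whose only annotated symbol was one of these names. This gave 10 of the 52766 probe sets that were not controls. STAR, HSD3B2 and HSD11B1 had 1 probe set each, FDXR and CYP17A1 had 2 each, and FDX1 had 3. A further probe set annotated to HSD3B2 and to a second symbol was left out.

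The animals were female bonnet monkeys (Macaca radiata). On luteal phase day 7 all of them received 150 µg/kg of CET, an agent that per the labels inhibits the secretion of LH by the animal itself. At 24 h they were given either PBS (replicates 1 and 2) or recombinant LH, rhLH, at 20 IU/kg (replicates 3 and 4), and the corpus luteum was taken 8 h later. The PBS group is therefore a state of LH withdrawal and not an untreated corpus luteum, and no array of an animal without CET was analysed here. RNA came from pieces of whole tissue, in which fewer luteal cells and less RNA per cell cannot be told apart. The labels do not tie an array to an animal, so p-values reflect only how far these arrays differ, which may be partly technical.

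Luteal cells make progesterone from cholesterol. StAR, the protein of STAR, delivers cholesterol to the inner mitochondrial membrane, where the enzyme CYP11A1 cleaves its side chain to give pregnenolone. That cleavage uses electrons passed from NADPH by ferredoxin reductase (FDXR) to ferredoxin (FDX1), and HSD3B2 then converts pregnenolone to progesterone. CYP17A1 turns progestins towards androgens and in the ovary is typical of cells of thecal origin, while HSD11B1 regenerates active glucocorticoid from its inactive 11-keto form. LH acting through cAMP is the main stimulus of this pathway in the primate corpus luteum.

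The members can be read only with the state of PBS replicate 1 in view. Across 31659 probe sets kept above a low-signal filter, its log2 signals correlated with those of the other arrays at 0.752 to 0.780 (Pearson r across probe sets, which are not independent), against 0.940 to 0.947 among the other arrays. Its median signal was 186 against 136 to 139.5, and its 99th percentile was 8886 against 12091 to 12459. Bright probe sets in general were dimmer there: of the 317 probe sets in the brightest 1% of those kept, 89.9% had their lowest signal on PBS replicate 1, compared with 35.7% of all kept probe sets. The median log2 difference of those 317, rhLH mean minus control, was 0.84 with PBS replicate 1 as the control and −0.09 with PBS replicate 2. The probe sets of STAR, HSD3B2 and HSD11B1 and 2 of the 3 of FDX1 belonged to this brightest 1%. Differences below are in log2(signal + 16), as the mean of both rhLH arrays minus PBS.

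**Figure D1:**
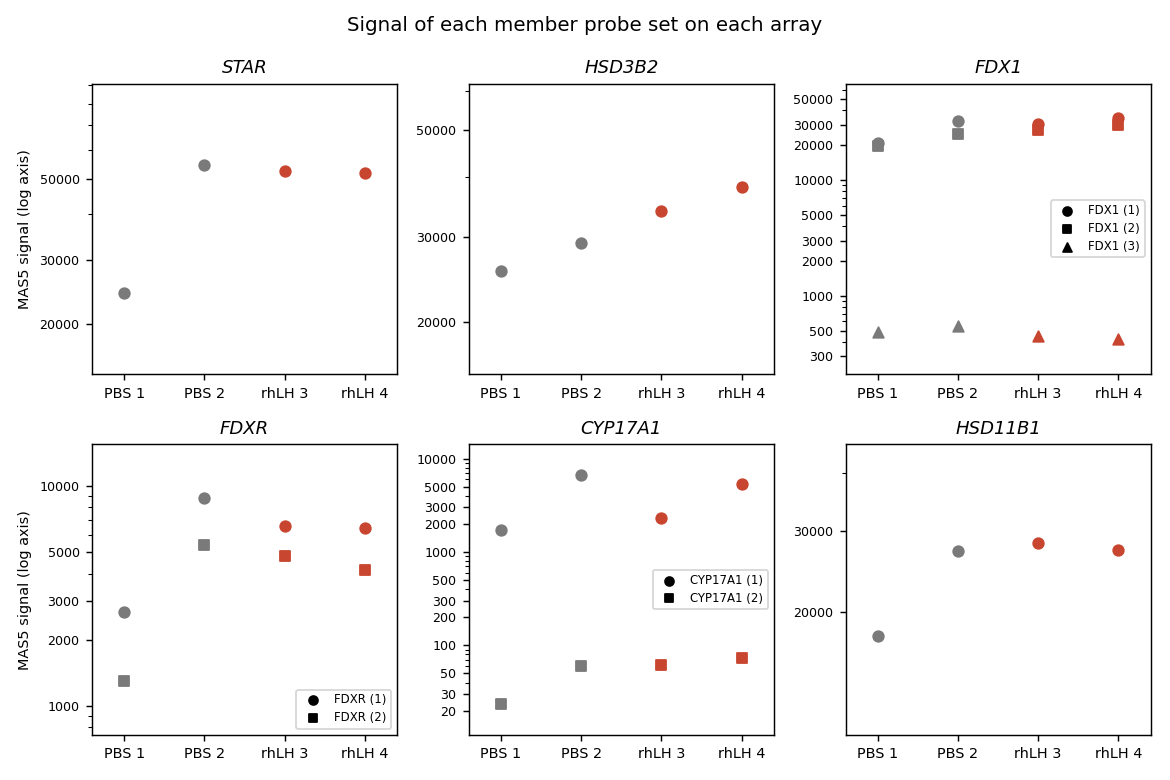
Deposited MAS5 signal (log axis, arbitrary units, a separate scale in each panel) of each of the 10 member probe sets on the PBS arrays (grey) and the rhLH arrays (red); each point is 1 array, and numbers in brackets tell probe sets of a gene apart, brightest first. STAR sits at 24283 on PBS replicate 1 and between 51660 and 54566 on the other arrays, whereas the HSD3B2 signals of 33922 and 38138 with rhLH lie above both PBS signals.

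STAR transcripts were abundant in every sample, and their signal with rhLH differed from that of only 1 of the PBS arrays. Its probe set (MmuSTS.4519.1.S1_at, Entrez gene 699515) read 24283 and 54566 on the PBS arrays, and 52570 and 51660 after rhLH. PBS replicate 1 thus stood alone at the low end, while PBS replicate 2 lay above both rhLH arrays, so the groups overlapped. Both rhLH arrays were close to each other, with a log2 gap of 0.03. The mean signal after rhLH was 52115 ± 644 (SD, n = 2). The mean with PBS was 39424 ± 21413 (SD, n = 2). The difference was 0.52 (SE 0.53, 95% interval −0.78 to 1.81) and did not pass (limma adjusted p = 0.919). Set against PBS replicate 1 alone it was 1.10, or 2.15-fold, and set against PBS replicate 2 alone −0.07.

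By its place within each array, STAR was nearer the top on both rhLH arrays than on either PBS array. Counting from the brightest of the 52766 probe sets, it was in position 29 and 17 on the PBS arrays and in position 11 on each rhLH array. Positions do not depend on how an array was scaled, although they do depend on the other bright transcripts. In percentiles the difference was 0.02 points.

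HSD3B2, which makes progesterone, was the member whose groups separated on the linear scale with a positive difference of 0.30 or more from each control. The signals of MmugDNA.19420.1.S1_at (Entrez gene 712686) were 25500.1 and 29153 with PBS and 33922 and 38138 with rhLH. Every rhLH value was above every PBS value. The means were 36030.1 ± 2981 (SD, n = 2) and 27327 ± 2583 (SD, n = 2), a 1.32-fold difference. In log2 this was 0.40 (SE 0.39, interval −0.55 to 1.35; limma adjusted p = 0.919). The single controls gave 0.50 (PBS replicate 1) and 0.30 (PBS replicate 2). Its paralogue HSD3B1 is close in sequence, and whether the probes tell the genes apart was not tested.

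The order of the HSD3B2 signals was not kept by its positions. It stood in position 17 on PBS replicate 1, the highest of the arrays, in 142 on PBS replicate 2, and in 94 and 46 on the rhLH arrays. Quantile normalization, which gives the arrays the same distribution of signals, moved the difference to −0.01, with −0.40 from the first PBS array and 0.38 from the other. The 0.50 against PBS replicate 1 was also smaller than the median of 0.84 among the brightest 1% of probe sets.

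FDX1, the ferredoxin that hands electrons to CYP11A1, was read by 3 probe sets that did not move alike. The brightest (MmugDNA.29297.1.S1_at, Entrez gene 709110) had signals of 20934 and 32254 with PBS and of 30546 and 34166 with rhLH, so PBS replicate 2 fell between the rhLH arrays. The difference was 0.31 (SE 0.42, interval −0.71 to 1.34; limma adjusted p = 0.919), or 0.63 from PBS replicate 1 and 0.0023 from PBS replicate 2. In MmugDNA.33189.1.S1_at the signals were 19726 and 25162 with PBS and 27066 and 30044 with rhLH, with no overlap and a difference of 0.36 (0.53 and 0.18 against the PBS arrays in turn).

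The third FDX1 probe set, MmugDNA.7395.1.S1_at, was far dimmer and went the other way. Its signals were 484 and 551 with PBS and 452 and 419 with rhLH, so that both rhLH arrays lay below both PBS arrays. The difference was −0.24 (interval −1.16 to 0.68; limma adjusted p = 0.919). Which part of the transcript each probe set reads is not given in the sources used here. In positions the brightest FDX1 probe set ran from 68 on PBS replicate 1 through 77 on rhLH replicate 4 to 122 and 123 on rhLH replicate 3 and PBS replicate 2, and the second from 82 to 192 with the same array first and PBS replicate 2 last. Quantile normalization brought the differences of the bright pair to −0.03 and 0.0084.

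FDXR, the reductase that feeds FDX1, differed widely between the PBS arrays, by 1.71 and 2.05 in log2 in its probe sets (CYP17A1 by 1.95). MmuSTS.3713.1.S1_at (Entrez gene 699336) had signals of 2684 and 8809.8 with PBS and of 6563 and 6456 with rhLH. The second, dimmer FDXR probe set had 1295 and 5406 with PBS and 4791 and 4148 with rhLH. In both, PBS replicate 1 was the lowest array and PBS replicate 2 the highest, with the rhLH arrays between them. The pooled differences of 0.42 (SE 0.58, interval −1.02 to 1.85) and 0.75 (SE 0.67, interval −0.90 to 2.39) did not pass (limma adjusted p = 0.919 for each). They averaged values of opposite sign, 1.27 and −0.44 for the first probe set and 1.77 and −0.28 for the second.

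The gap of FDXR to PBS replicate 1 remained when distributions were matched. After quantile normalization the rhLH mean stood 1.08 and 1.70 above PBS replicate 1 and −0.43 and −0.26 from PBS replicate 2. Its first probe set was in position 2801 on PBS replicate 1, 774 on PBS replicate 2, and 1125 and 1164 on the rhLH arrays. The second was in position 6368 on PBS replicate 1 and between 1416 and 1928 on the others.

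CYP17A1, the enzyme of the androgen branch, differed far more within each group than between the group means in its kept probe set. The signals of MmuSTS.4193.1.S1_at (Entrez gene 678693) were 1715 and 6687 with PBS and 2296 and 5336 with rhLH. Each group thus held a low and a high array, and the groups overlapped fully. The rhLH arrays were 1.21 apart in log2, against 0.02 to 0.21 for the other members and a median gap of 0.29 over all kept probe sets. The difference was 0.05 (SE 0.73, interval −1.76 to 1.85; limma adjusted p = 0.991), an average of 1.02 from PBS replicate 1 and −0.93 from PBS replicate 2. Without rhLH replicate 4 it became −0.56.

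The other CYP17A1 probe set, MmugDNA.37726.1.S1_at, had signals of 23.4 and 60.5 with PBS and of 61.6 and 73.1 with rhLH. All of these were below the filter level of 90.7, so it was not tested and its difference of 0.60 is given as a value only. It was the only member probe set to miss the filter. Of the thecal markers besides CYP17A1, 2 of 3 were measured. TCF21 had 264 and 128 with PBS and 47.6 and 34.5 with rhLH, both of the latter under the filter level. NR2F2 lay between 3518 and 4230 on all arrays. Their summed signal, to which NR2F2 gave the most on every array, ranged from 3995 to 4495 with PBS and from 3566 to 4012 with rhLH. The part of thecal cells in the CYP17A1 values was not tested.

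HSD11B1, the glucocorticoid-regenerating enzyme, was near the top of every array and almost level on 3 of them. MmugDNA.31533.1.S1_at (Entrez gene 574322) had signals of 17685 and 27121 with PBS and of 28255 and 27199 with rhLH. The groups did not overlap, but PBS replicate 2 lay just below rhLH replicate 4. The means were 27727 ± 747 (SD, n = 2) and 22403 ± 6672 (SD, n = 2). The difference was 0.34 (SE 0.41, interval −0.66 to 1.34; limma adjusted p = 0.919), or 0.65 from PBS replicate 1 and 0.03 from PBS replicate 2. Its positions of 127 and 170 with PBS and 141 and 152 with rhLH interleaved, and quantile normalization left a difference of 0.0030.

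**Figure D2:**
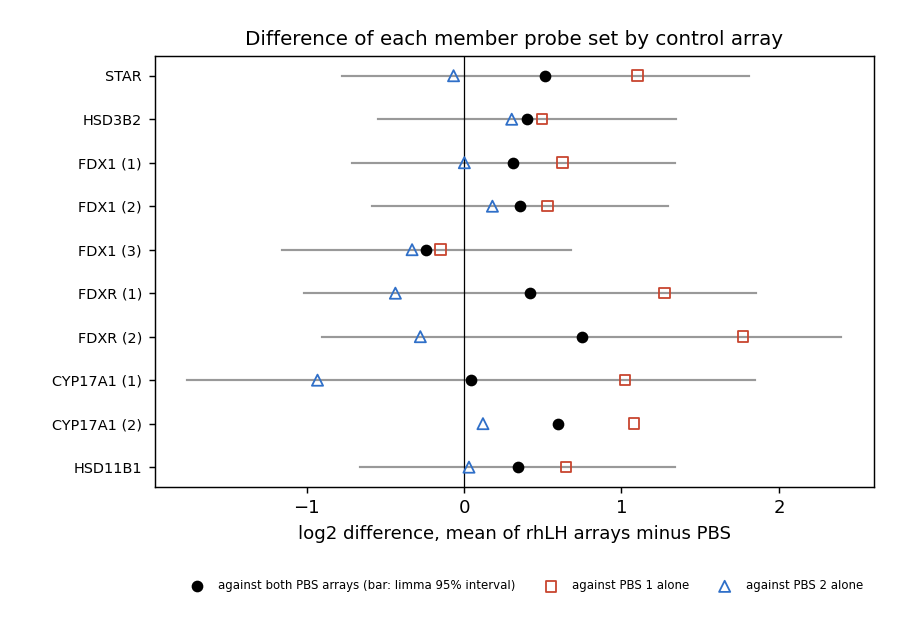
Log2 difference (x axis) of each member probe set, mean of both rhLH arrays minus both PBS arrays (black, with the limma 95% interval where tested), minus PBS replicate 1 alone (red squares) or minus PBS replicate 2 alone (blue triangles); the controls share the same rhLH arrays. All intervals span 0, and the values against PBS replicate 2 lie between −0.93 and 0.30.

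No member passed the test. Of the 9 kept member probe sets 0 passed limma at an adjusted p of 0.05, and 0 had an unadjusted p under 0.05; over all kept probe sets 0% passed and 641 had an unadjusted p under 0.05. Both rhLH arrays were above both PBS arrays in 3 of the 9 (HSD3B2, FDX1 and HSD11B1), where the background was 14.4%, and below them in 1 (the dim FDX1 probe set), where it was 17.7%. The median difference of the 9 was 0.36, against −0.04 over all kept probe sets and 0.38 over the brightest 1%. A rule asking for at least 2-fold between every rhLH and every PBS array was met by 0 members and by 0.834% of kept probe sets. An exact permutation test of 2 arrays against 2 cannot give a two-sided p below 0.333.

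The outcome depended on which PBS array served as the control. Against PBS replicate 1, 4 of the 9 kept probe sets (STAR, both of FDXR and the kept one of CYP17A1) were at least 2-fold higher with rhLH, beside 16.2% of all kept probe sets, and 0 were 2-fold lower, beside 19.3%. Against PBS replicate 2 the counts were 0 higher (background 3.6%) and 0 lower (background 3.05%). With PBS replicate 1 as the sole control the 9 differences ran from −0.15 (dim FDX1 probe set) to 1.77 (dimmer FDXR probe set). They were 1.10 for STAR, 0.65 for HSD11B1 and 0.63 for the brightest FDX1 probe set. A lone control array gives no spread of its own, so calls from such a fit are not read as results. They appear only where the processing settings are compared. With PBS replicate 2 as the sole control STAR, FDXR and CYP17A1 took negative differences. In 5 of the 9, both rhLH arrays were below PBS replicate 2, and in 3 both were above it. The same shares over all kept probe sets were not counted.

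**Figure D3:**
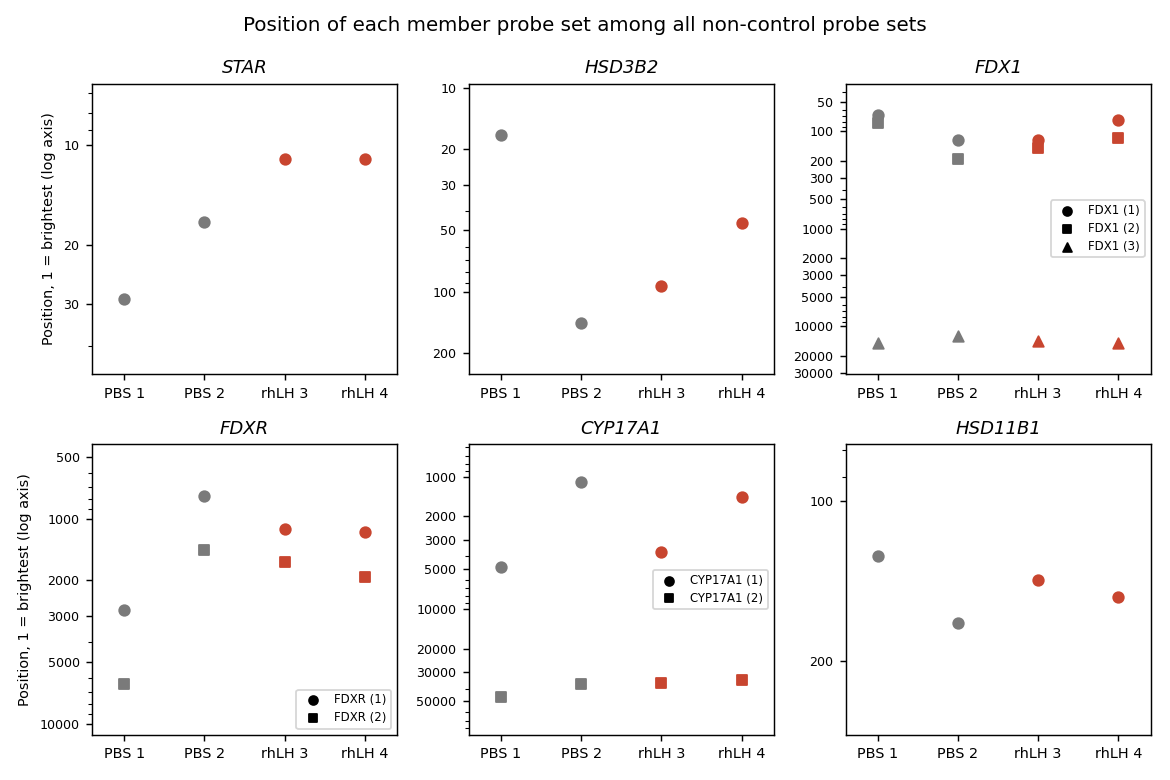
Position of each member probe set within each array (log axis, 1 is the brightest of 52766, drawn at the top; separate scale in each panel); each point is 1 array, grey for PBS and red for rhLH. HSD3B2 was highest on PBS replicate 1 (position 17), whereas FDXR was lowest there (2801 and 6368).

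**Figure D4:**
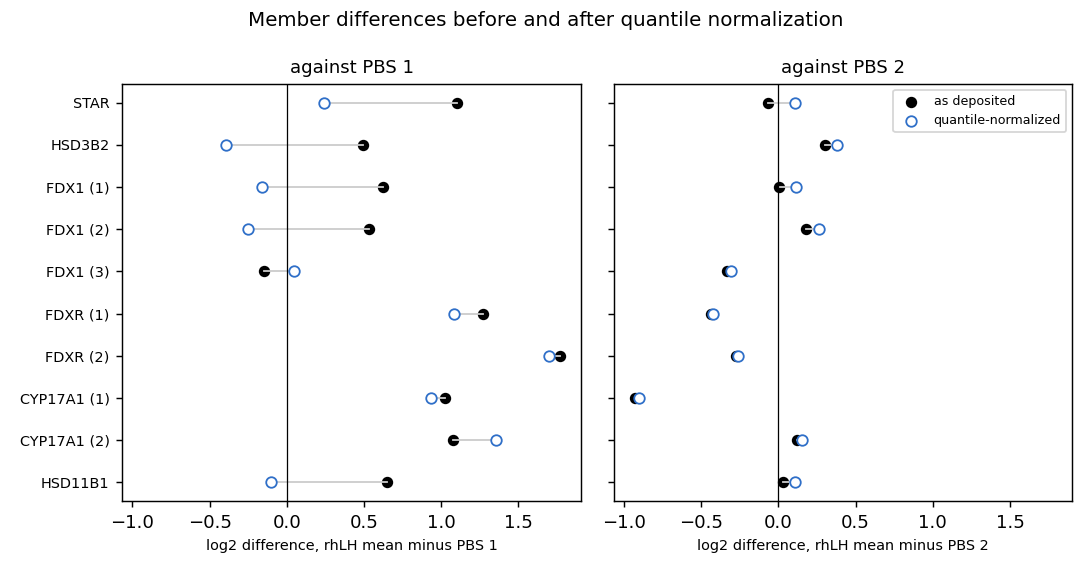
Log2 difference of the rhLH mean from each PBS array (x axis) for the 10 member probe sets, as deposited (black) and after quantile normalization (open blue), with grey lines joining the pair. Against PBS replicate 1 the values of HSD3B2 and HSD11B1 crossed 0 (0.50 to −0.40 and 0.65 to −0.10) while those of FDXR stayed above 1.

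The kept members fell into 2 kinds when distributions were matched. The grouping was made after their values were seen and leaves out the dim FDX1 probe set. The first kind was the 5 member probe sets in the brightest 1%, a class that was dimmer in general on PBS replicate 1. The first kind is thus set by brightness, on which quantile normalization acts, and the split is not read as a trait of the genes. Its cause was not tested. STAR, HSD3B2, HSD11B1 and the bright pair of FDX1 probe sets differed from PBS replicate 1 by 0.50 to 1.10 as deposited and by −0.40 to 0.24 after quantile normalization. FDXR and the kept CYP17A1 probe set differed from it by 1.02 to 1.77 as deposited and by 0.94 to 1.70 afterwards. The dim FDX1 probe set differed from it by −0.15 as deposited and by 0.05 afterwards. Against PBS replicate 2 the first kind differed by −0.07 to 0.30 as deposited. Centring each array on its median, by contrast, added 0.23 to every pooled difference. It turned no sign among the 9, though the dim FDX1 probe set came to −0.01 and was no longer below both PBS arrays.

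Markers of granulosa-lutein cells differed between the arrays too. Of 7 such markers 5 were measured. In 4 of them (CYP19A1, HSD17B1, AMHR2 and NR5A2) both rhLH arrays were above both PBS arrays, and in 0 both were below. Over all kept probe sets the shares were 14.4% above and 17.7% below. Each marker was read by its brightest kept probe set. In a further NR5A2 probe set rhLH replicate 4 (2277) lay below both PBS arrays (2388 and 2567). CYP19A1, HSD17B1 and NR5A2 also stand in the pathway lists below, so those counts are not separate from this one. HSD17B1 on both PBS arrays (67.1 and 51.4) and AMHR2 on PBS replicate 1 (77.2) were under the filter level of 90.7. The median over the 5 was 1.12, or 1.98 from PBS replicate 1 and 0.35 from PBS replicate 2, and 0 passed limma. CYP19A1, the aromatase, had signals of 1884 and 7431 with PBS and of 12669.9 and 20847 with rhLH. The summed signal, to which INHA gave the most on every array, was 12330 on PBS replicate 1 and 56332 on PBS replicate 2, against 55095 and 61566 with rhLH. INHA, the inhibin alpha subunit, had signals of 7756 and 44827 with PBS and of 36496 and 35762 with rhLH. It was the marker whose groups overlapped, and 4 of the 5 were lowest on PBS replicate 1. The summed signal of 5 leukocyte markers was 8551 and 32162 with PBS and 18699 and 15542 with rhLH. LYZ gave the most to it on every array (6121 and 28435 against 13206 and 12488). PTPRC, another of these markers, ran in a different order (628 and 356 against 733 and 234). For 4 fibroblast markers the sum was 31810 and 63004 against 54547 and 60514, while LUM among them ran in a different order (2777 and 855 against 741 and 1950). Endothelial markers, 7 of 7 measured, ranged from 19377 to 23587 in sum on all arrays. Of these, 4 were lowest on PBS replicate 1, among them KDR (34.8 there, under the filter level, and 234 to 305 on the others). The smooth muscle sum (3 of 6) was 4619 and 7518 against 9098 and 8383. In it TAGLN lay above both PBS arrays (2668 and 2568 against 6118 and 6561). MYH11 (1865 and 4501 against 2584 and 1318) and CNN1 overlapped. The erythroid sum (2 of 4) lay between 899 and 1235. HBB gave the most to it, while ALAS2 read 97.7 and 99.4 with PBS and 209 and 310 with rhLH. The part of these cells in the member values was not tested.

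Other genes of the pathway were counted by their brightest probe set above the filter (measured, below), from lists chosen with earlier results of these data known. None of the 5 lists held a gene that passed limma. Counts of genes above and below both PBS arrays stand beside 14.4% and 17.7% of all kept probe sets. CYP11A1, HSD3B1 and LHCGR were not found among the annotated symbols and are not analysed here. In cholesterol delivery 9 of 16 genes were measured, with 2 above and 0 below both PBS arrays and a median of 0.01. ACBD3, a Golgi protein that binds the cholesterol-handling protein TSPO, had a difference of 0.34 (0.36 and 0.32 against the PBS arrays), while its further probe set had 70.2 (under the filter level) and 617 with PBS and 625 and 494 with rhLH. TSPO itself differed by 0.68 (1.33 and 0.02), and its further probe set by −0.58.

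Among steroid enzymes and their electron donors 10 of 22 genes were measured, with 5 above and 1 below both PBS arrays and a median of 0.47 (0.97 and 0.05 against the PBS arrays). HSD17B1, which makes estradiol from estrone, read 67.1 and 51.4 with PBS, both under the filter level of 90.7, and 273 and 319 with rhLH (limma adjusted p = 0.919). CYP11B1, a mitochondrial enzyme of cortisol synthesis that also draws on FDX1, had 600.0 and 722 with PBS and 3901 and 1715 with rhLH (1.95). Its further probe set had 312 and 254 with PBS and 851 and 498 with rhLH (1.17). In both CYP11B1 probe sets the rhLH arrays lay above both PBS arrays. POR, the reductase that serves CYP17A1 in the endoplasmic reticulum, differed by 0.72 (1.42 and 0.02), while its 3 further probe sets differed by −0.17 to −0.55.

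Iron-sulfur assembly and mitochondrial NADPH genes build and fuel the ferredoxin system, and CYP27A1, CYP27B1 and CYP24A1, in the same list, draw on it. Of the 20 symbols 12 were measured, with 4 above and 1 below both PBS arrays and a median of 0.19. FDX2, the ferredoxin that works mainly in iron-sulfur assembly, had signals of 32.6 and 458 with PBS and 623 and 346 with rhLH. PBS replicate 1 was under the filter level there, and PBS replicate 2 lay between the rhLH arrays. CYP27B1, which activates vitamin D with electrons from FDX1, had 354 and 217 with PBS and 146 and 145 with rhLH (−0.86). Its groups did not overlap.

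Genes of glucocorticoid handling and response had a median of 0.36 over 9 of 13 genes, or 0.86 from PBS replicate 1 and 0.05 from PBS replicate 2, with 2 above and 0 below both. H6PD, which supplies NADPH to the enzyme of HSD11B1, had signals of 81.4 and 127 with PBS and 162 and 112 with rhLH (0.36). TSC22D3, a glucocorticoid-induced leucine zipper gene, had 3473 and 5902 with PBS and 6591 and 6156 with rhLH (0.49), and the kinase gene SGK1 differed by 0.46 (0.86 and 0.05). The further SGK1 probe set gave 1.17 and −0.13.

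Regulators of STAR were measured in 15 of 18 cases, with 2 above and 4 below both PBS arrays and a median of 0.06. NR5A1, the steroidogenic factor that binds the STAR promoter, had signals of 175 and 539.9 with PBS and 495 and 602 with rhLH (1.56 and 0.02 against the PBS arrays). NR5A2, its relative expressed in granulosa-derived cells, had 2545 and 3729 with PBS and 5351 and 4229 with rhLH (0.62). Its further probe sets differed by 0.32 and 0.21, and in the latter rhLH replicate 4 (2277) lay below both PBS arrays (2388 and 2567). NR4A1, an orphan receptor induced rapidly by cAMP, was lower on both rhLH arrays (487 and 1605) than on the PBS arrays (1633 and 3684), a difference of −1.45 (limma adjusted p = 0.919). Its further probe set had signals of 218 and 3253 with PBS and 400.3 and 1055 with rhLH and overlapped.

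**Figure D5:**
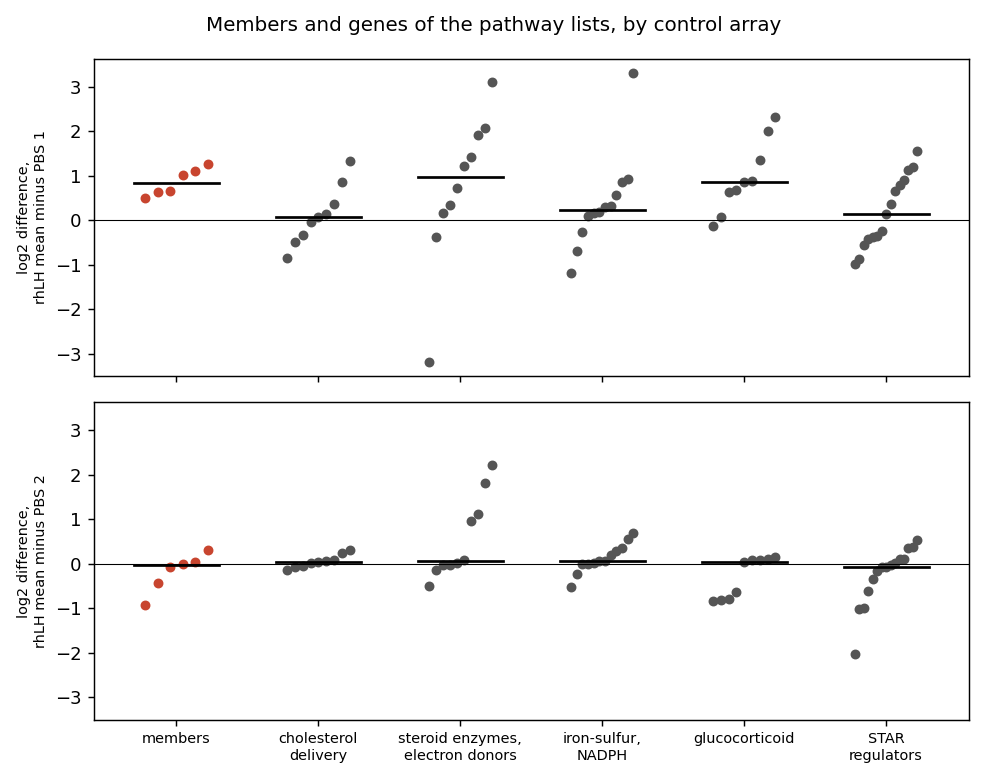
Log2 difference of the rhLH mean from PBS replicate 1 (upper panel) and from PBS replicate 2 (lower panel) for the brightest kept probe set of each of the 6 members (red) and of the genes in 5 pathway lists (grey); bars are medians. The member median was 0.84 in the upper panel and −0.03 in the lower.

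The genes whose 4 values ran most like those of a member were found by Euclidean distance between log2 values after subtracting each probe set's mean, among 10997 other genes. For STAR they were WBP1L and CDKN3 (distances 0.03 and 0.04), for HSD3B2 INPP1 and SFXN2 (0.04 and 0.05), and for FDX1 COX6B1, a subunit of cytochrome c oxidase, and ICAM3 (0.03 and 0.04). For HSD11B1 they were NONO and WASHC3 (0.03 and 0.04). FDXR was nearest to PRR15 and LOC710110 (0.08 for each) and CYP17A1 to SPATA2L and IMMT (0.23 and 0.24). Among the members themselves FDX1 and HSD11B1 were closest, at 0.16, and HSD3B2 and CYP17A1 farthest, at 1.49. With 4 arrays and this many genes such small distances describe these arrays only.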

How the data were processed

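Corpus luteum RNA was hybridised to 4 Affymetrix rhesus macaque arrays. The deposited values are probe set intensities, made with MAS5 per the submitters' processing notes. Of the scaling target, detection calls and filters nothing is stated. On every array the mean signal, with the lowest and highest 2% of probe sets left out, was 500.0. Mismatches between rhesus probes and bonnet monkey transcripts were not examined. Groups came from the sample titles.

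Signals were used as log2(signal + 16) with no further normalization. After 99 controls were set aside, probe sets with a mean above the 40th percentile (a signal of 90.7) were kept, 31659 in all. They were fitted together in R 4.3.3 by limma 3.58.1 (its lmFit and trended eBayes; two-sided p, adjusted by Benjamini-Hochberg over all kept probe sets). The fit was checked on simulated data in which all arrays had equal and independent noise. That check does not cover an array that stands apart, such as PBS replicate 1. With 2 arrays a group, their number limits the precision. Symbols came from the platform annotation provided: 24956 probe sets had 1 symbol, 361 several and 27449 none. No genome was used.

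All member probe sets are named. From each pathway list the text names the 2 genes with the smallest p, as none passed, with CYP11A1, HSD3B1, POR, NR5A1, LHCGR and H6PD where measured, and for each member the 2 genes most like it. Members and lists were chosen with earlier results of these data known. Alternatives covered quantile normalization, median centring, pseudocounts of 1 and 64, a filter at the 70th percentile or none, eBayes without a trend, array weights, ranks among kept probe sets, other probe sets, and leaving out each array.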

Additional observations from a re-analysis of the deposited data

How the results depend on the processing

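No member passed limma under any setting that kept all 4 arrays, and 0 probe sets passed at all under these, with 307 to 1594 at an unadjusted p under 0.05. Quantile normalization reversed HSD3B2 (−0.0098) and the brightest FDX1 probe set (−0.026). The 3 kept member probe sets above both PBS arrays as deposited then overlapped, and STAR, which had overlapped, came to lie above both. Of the kept member probe sets 0 were then below both PBS arrays, and median centring also left 0 below. The shares over all kept probe sets were not counted under these settings. Another FDX1 probe set, MmugDNA.7395.1.S1_at, gave −0.24. Leaving out each array in turn, with the lone array of an arm assumed to vary like the other arm, gave ranges of −0.066 to 1.10 for STAR, 0.30 to 0.50 for HSD3B2, 0.0023 to 0.63 for FDX1, −0.44 to 1.27 and −0.28 to 1.77 for the FDXR probe sets, −0.93 to 1.02 for CYP17A1 and 0.032 to 0.65 for HSD11B1. The reversed values came without PBS replicate 1 (STAR −0.066, FDXR −0.44 and −0.28, CYP17A1 −0.93) and without rhLH replicate 4 (CYP17A1 −0.56). Over these 4 settings the count of passing probe sets ran from 0 to 8169 and that of members from 0 to 5, both highest without PBS replicate 2. Adjusted p over all settings ran from 0.00556 to 1.00 for STAR and from 0.0752 to 1.00 for HSD3B2. The lowest of these adjusted p, and every passing probe set, came from the fit with PBS replicate 1 as the only control. That fit took its spread from the rhLH arrays alone, so its passing counts and adjusted p are not read as results. Differences in percentile rank changed sign for 8 of the 10 probe sets when an array was left out. The other settings, namely both pseudocounts, eBayes without a trend and array weights, turned no member's direction; array weights were equal within a pair of replicates. The cause of these changes was not tested. No paired analysis was possible because the PBS arrays are numbered 1 and 2 and the rhLH arrays 3 and 4.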

Other observations

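In FKBP5, ZBTB16, PER1 and DUSP1 of the glucocorticoid list (9 genes measured), picked after their values were seen, PBS replicate 1 was the lowest array and PBS replicate 2 the highest. FKBP5, a co-chaperone of the glucocorticoid receptor, had signals of 198 and 1475 with PBS and of 829.8 and 859.8 with rhLH. ZBTB16, a zinc finger repressor, had 182 and 1732 with PBS and 973 and 973 with rhLH. PER1, a clock gene, had 298 and 1425 with PBS and 785 on each rhLH array, and the phosphatase gene DUSP1 had 8009 and 19824 with PBS and 11916.5 and 13696 with rhLH. Others of the list did not share this order: TSC22D3 (0.87 and 0.11) and SGK1 (0.86 and 0.05) had positive differences from both PBS arrays. NR3C1, the glucocorticoid receptor gene, lay between 1216 and 1416 on all arrays, with PBS replicate 1 the highest.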
